A study of Mus musculus with 8 samples.

Results

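The genes Afp, H19, Igf2, Gpc3, Cd44, Sox9, Epcam, Ly6d, Krt7 and Krt19 were followed in mouse livers by RNA sequencing, 10 genes of the 49585 in the count table. They were named for their known roles as oncofetal, progenitor and bile duct markers, by a rule that uses no measured value, although earlier results of these data were known when they were named. The livers came from 8 male mice, 3 of them LP+/+, 2 LPfl/+ and 3 LP245/+. All were fed HFCD, a diet rich in fat and poor in choline on which fatty liver disease develops, for 3 months from 21 days of age. LPfl/+ mice carried the Alb-Cre transgene and 1 floxed Trp53 allele, which Cre deletes (Alb-CreTG, Trp53fl/+). LP245/+ mice carried Alb-Cre and 1 Trp53 allele that Cre switches from wildtype to the R245W missense mutant (Alb-CreTG, Trp53wm-R245W/+). The LP+/+ mice were Cre-negative by their labels and still held an unrecombined allele, Trp53fl/+ in replicates 1 and 2 and Trp53wm-R245W/+ in replicate 3. The Alb promoter drives Cre in hepatocytes and cholangiocytes, so that all other liver cells keep wildtype p53 in every group. Whole liver was extracted, and each value therefore covers recombined and unrecombined cells together.

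Oncofetal genes are active in the fetal liver, are shut down after birth and can return in hepatocellular carcinoma. Liver progenitor and bile duct genes mark cholangiocytes and the ductular cells that multiply in injured livers, and some of them are also gained by hepatocytes under chronic stress. These genes are used as early signs of dedifferentiation in livers at risk of cancer, and p53 is known to repress some of them, Afp and Cd44 among them. The question is whether these markers differ in livers with a Trp53 lesion at an early time on the diet, before tumors. By the labels, all LPfl/+ and LP245/+ livers carried Cre and no LP+/+ liver did. In comparisons with LP+/+, the Cre transgene and the Trp53 lesion therefore cannot be told apart.

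The libraries held between 26304526 and 31370714 counts. By library number they form 2 series. One holds the 3 LP245/+ libraries and LP+/+ replicates 2 and 3, and the other holds LP+/+ replicate 1 and both LPfl/+ libraries. The first principal component of all genes tested held 31.1% of the variance and separated the series, with scores of 15.1 to 28.2 in the first and -42.6 to -26.7 in the second. No series held both LP245/+ and LPfl/+, so for these genotypes series and genotype cannot be told apart. Trp53, the targeted gene, had 234, 269 and 215 reads in the LP+/+ livers, 125 and 176 in the LPfl/+ livers and 306, 291 and 190 in the LP245/+ livers, so that both LPfl/+ livers were below every other liver. This does not go against the labels, and gene counts do not separate the R245W allele from the wildtype allele. The hepatocyte list was abundant in every liver, all 10 of its genes were detected, and Alb stood at 38398 CPM per kb of exon, where CPM are counts scaled to the size of the library.

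Of the markers, 6 had a promoter in the RefSeq table for GRCm38.p6, with 9 transcription starts in all, 4 of them of Igf2. The promoters of Afp, the classical oncofetal liver gene, and of Igf2, the member whose groups stood apart, are shown for contrast, each as the 250 bases before the start. The Afp stretch lies on the plus strand at chr5:90490464-90490713, and capitals mark GTTAAT, a half-site of the hepatocyte factor HNF1, and TATAAA, the TATA box, both searched on both strands.
Afp promoter: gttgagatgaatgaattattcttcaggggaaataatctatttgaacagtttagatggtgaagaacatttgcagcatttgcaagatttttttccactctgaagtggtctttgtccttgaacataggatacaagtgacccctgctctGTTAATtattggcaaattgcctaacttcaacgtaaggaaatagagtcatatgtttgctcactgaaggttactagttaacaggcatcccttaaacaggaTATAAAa
It held 1 match to each word, which do not overlap, while 6.43% of the 32851 promoters in the table hold GTTAAT and 12.4% hold TATAAA. The Igf2 stretch lies on the minus strand at chr7:142658805-142659054, upstream of 1 of the 4 starts, and capitals mark CG, the dinucleotide that DNA methylation uses.
Igf2 promoter: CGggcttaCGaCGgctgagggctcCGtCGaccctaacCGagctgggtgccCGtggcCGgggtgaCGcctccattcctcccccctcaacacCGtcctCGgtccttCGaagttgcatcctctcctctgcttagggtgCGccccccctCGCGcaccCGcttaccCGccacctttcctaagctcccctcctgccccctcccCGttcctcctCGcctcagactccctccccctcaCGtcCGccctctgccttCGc
It held 22 CG dinucleotides and 68.8% G and C, against 1 and 36.0% in the Afp stretch and medians of 6 and 52.4% over all promoters in the table. It is the start of Igf2 richest in CG, and the other 3 held 1, 6 and 10 CG and 50.8%, 66.0% and 47.6% G and C. Neither printed stretch held CATG, a common core of p53 half-sites, which 53.9% of all promoters hold. CATG was found upstream of 1 other Igf2 start, at chr7:142666817-142667066, and of Krt7 and Epcam. The read counts cover whole genes and do not tell which Igf2 start was used.

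All 10 markers were detected, at low to middling levels. Per kb of exon, Ly6d had the highest mean over the 8 livers at 2.69 CPM per kb, followed by Cd44 at 1.95, Afp at 1.44, Sox9 at 0.740, Gpc3 at 0.669, Krt19 at 0.547, Epcam at 0.490, H19 at 0.252, Krt7 at 0.0864 and Igf2 at 0.0483. Neighbours in this order overlapped in their ranges over livers, with 1 exception. The lowest Afp liver, at 1.10 CPM per kb, was above the highest Sox9 liver at 1.04. The order depends on the exon length used, which joins the exons of all annotated transcripts of a gene. That length was 7.049 kb for Krt7 and 1.855 kb for Krt19. The median over the 16496 genes that edgeR tested after filtering out low counts was 2.04 CPM per kb, and Ly6d was the marker above it, at percentile 55.8 of those genes, while Cd44 was at 49.0, Afp at 42.7 and Igf2 at 0.885. The keratins that hepatocytes also make, Krt8 and Krt18, stood at 71.3 and 111 CPM per kb, far above the ductal keratins Krt19 and Krt7. By genotype the order changed at its top, where Ly6d led in LP+/+ with 3.76 ± 2.86 CPM per kb (SD, n = 3) and in LPfl/+ with 2.79 ± 0.346 (SD, n = 2), while in LP245/+ Cd44 had 1.69 ± 0.327 and Ly6d 1.55 ± 0.705 (SD, n = 3).

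**Figure D1:**
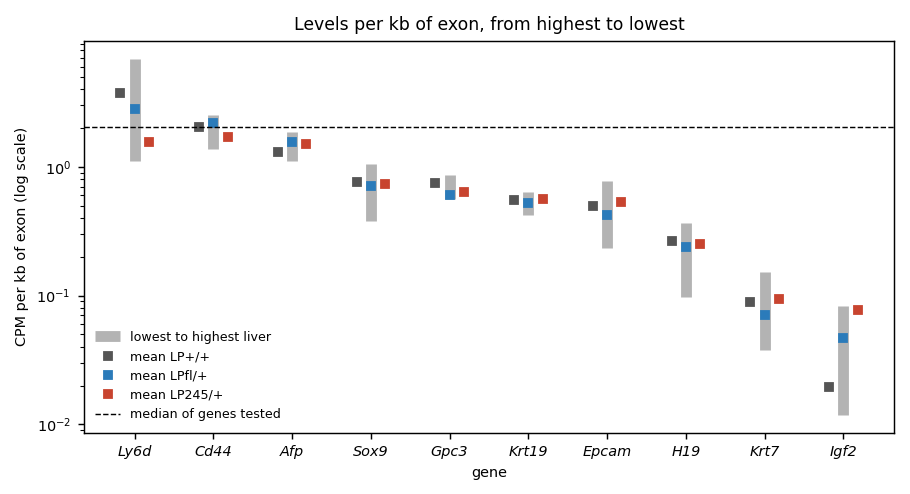
Level of each marker in CPM per kb of exon on a log axis, in the order of the means. Grey bars run from the lowest to the highest of the 8 livers, squares are the genotype means and the dashed line is the median of the genes tested, 2.04. The bars of neighbours overlap except between Afp and Sox9, and the Igf2 squares are spread more widely than those of any other marker.

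Afp encodes alpha-fetoprotein, the main plasma protein of the fetus and a serum marker of liver cancer. The gene lies at chr5:90490737-90508907 on the plus strand of GRCm38. It had 147, 133 and 112 reads in the LP+/+ livers, 119 and 175 in the LPfl/+ livers and 132, 171 and 116 in the LP245/+ livers. The genotypes overlapped, and all 8 livers lay between 112 and 175 reads. Normalized read counts, which are counts divided by DESeq2 size factors, were 125 ± 18.5 in LP+/+ (SD, n = 3), 149 ± 39.7 in LPfl/+ (SD, n = 2) and 142 ± 27.8 in LP245/+ (SD, n = 3). The log2 fold change was 0.20 in LP245/+ against LP+/+ (95% interval -0.28 to 0.68, edgeR adjusted p = 0.909) and 0.26 in LPfl/+ against LP+/+ (-0.28 to 0.79, adjusted p = 0.847). Between LP245/+ and LPfl/+ it was -0.06 (-0.59 to 0.48, edgeR adjusted p = 0.979). A doubling of Afp lies outside all 3 intervals. An antisense transcript, Gm43449, overlaps Afp and had 16 to 28 reads a liver; the strand setting of the counting was not given in the sources used here. In bulk tissue, fewer cells of a type and less RNA per cell cannot be told apart, for this and for every other marker.

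H19 is an imprinted long noncoding RNA that is abundant in fetal liver, at chr7:142575529-142578143 on the minus strand. It had 7, 26 and 25 reads in the LP+/+ livers, 16 and 17 in the LPfl/+ livers and 15, 11 and 25 in the LP245/+ livers. The lowest liver was the LP+/+ liver of the second library series, and the other LP+/+ livers were among the highest. Its log2 fold change was -0.08 in LP245/+ against LP+/+ (95% interval -1.17 to 1.01, edgeR adjusted p = 0.988) and -0.13 in LPfl/+ against LP+/+ (-1.36 to 1.09, adjusted p = 0.972). LP245/+ and LPfl/+ differed by 0.06 (-1.18 to 1.30, edgeR adjusted p = 0.993), or -0.02 with library totals in place of TMM factors. Within series, the means differed by -0.48 on the log2 scale for LP245/+ against LP+/+ in the first (3 against 2 livers) and by 1.30 for LPfl/+ against LP+/+ in the second (2 against 1 liver). The pooled difference of LPfl/+ from LP+/+ thus turned sign within the second series, while that of LP245/+ kept its sign in the first. At 7 to 26 reads a liver, the 95% intervals of all 3 comparisons include both a doubling and a halving of H19.

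Gpc3 encodes glypican-3, a heparan sulfate proteoglycan of the cell surface that is used to diagnose hepatocellular carcinoma, at chrX:52272426-52613950 on the minus strand. It had 63, 69 and 48 reads in the LP+/+ livers, 43 and 48 in the LPfl/+ livers and 48, 42 and 51 in the LP245/+ livers. The 2 highest livers were LP+/+, and the third LP+/+ liver lay among those of the other genotypes. The log2 fold change was -0.25 in LP245/+ against LP+/+ (95% interval -0.74 to 0.24, edgeR adjusted p = 0.883) and -0.31 in LPfl/+ against LP+/+ (-0.86 to 0.24, adjusted p = 0.819). The values within series were -0.22 and -0.40. LP245/+ and LPfl/+ differed by 0.06 on the log2 scale (-0.50 to 0.62, edgeR adjusted p = 0.979), a value that turned to -0.01 with library totals.

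Igf2, the fetal growth factor that lies next to H19 and is imprinted with it, was the marker whose genotypes did not overlap in any of the 3 comparisons, at very low counts. The gene spans chr7:142650766-142666816 on the minus strand. It had 2, 4 and 4 reads in the LP+/+ livers, 10 and 5 in the LPfl/+ livers and 13, 13 and 11 in the LP245/+ livers, and normalized read counts of 3.18 ± 1.08 (SD, n = 3), 7.59 ± 3.59 (SD, n = 2) and 12.6 ± 1.21 (SD, n = 3). Every LP245/+ liver was above every LPfl/+ liver, and both LPfl/+ livers were above every LP+/+ liver. In LP245/+ against LP+/+ the log2 fold change was 1.95 (standard error 0.48, 95% interval 0.88 to 3.03), with an unadjusted p of 0.00239, position 41 of the 16496 genes, and an edgeR adjusted p of 0.795. It was 1.23 in LPfl/+ against LP+/+ (-0.02 to 2.48, edgeR adjusted p = 0.727) and 0.72 in LP245/+ against LPfl/+ (-0.36 to 1.80, edgeR adjusted p = 0.729). None of these passed the cutoff of the study, which asks for a log2 fold change of 1 or more in size and an adjusted p of 0.05 or less.

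The Igf2 difference had the same direction within each library series, 1.73 on the log2 scale for LP245/+ against LP+/+ in the first and 1.97 for LPfl/+ against LP+/+ in the second, where LP+/+ was a single liver with 2 reads. It stayed between 1.71 and 2.09 in LP245/+ against LP+/+ when each liver was left out in turn. LPfl/+ against LP+/+ ran from 0.64, without LPfl/+ replicate 1, to 1.63, without LPfl/+ replicate 2, and LP245/+ against LPfl/+ from 0.32 without LPfl/+ replicate 2 to 1.30 without LPfl/+ replicate 1. From counting error alone, 37 reads over the LP245/+ livers against 10 over the LP+/+ livers gave a ratio of 3.98 (95% exact interval 1.94 to 8.98), and 15 reads over the LPfl/+ livers against the same 10 gave 2.40 (1.01 to 5.96). LP245/+ against LPfl/+ gave 1.66 (0.890 to 3.26), and these intervals carry no spread between animals. Of the markers, they were computed for Igf2 alone, so they give no independent support for a difference. Igf2 passed the filter on low counts only through the livers where it was high, since 3 LP245/+ livers, 1 LPfl/+ liver and 0 LP+/+ livers reached its 0.352 CPM, so that passing the filter is no support for a difference. Reads of the overlapping antisense gene Igf2os numbered at most 1 in a liver. With the library series as a covariate, LP245/+ against LPfl/+ turned to -0.21. A second gene model on the same strand, Gm49394, overlaps Igf2 and was not analysed here.

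**Figure D2:**
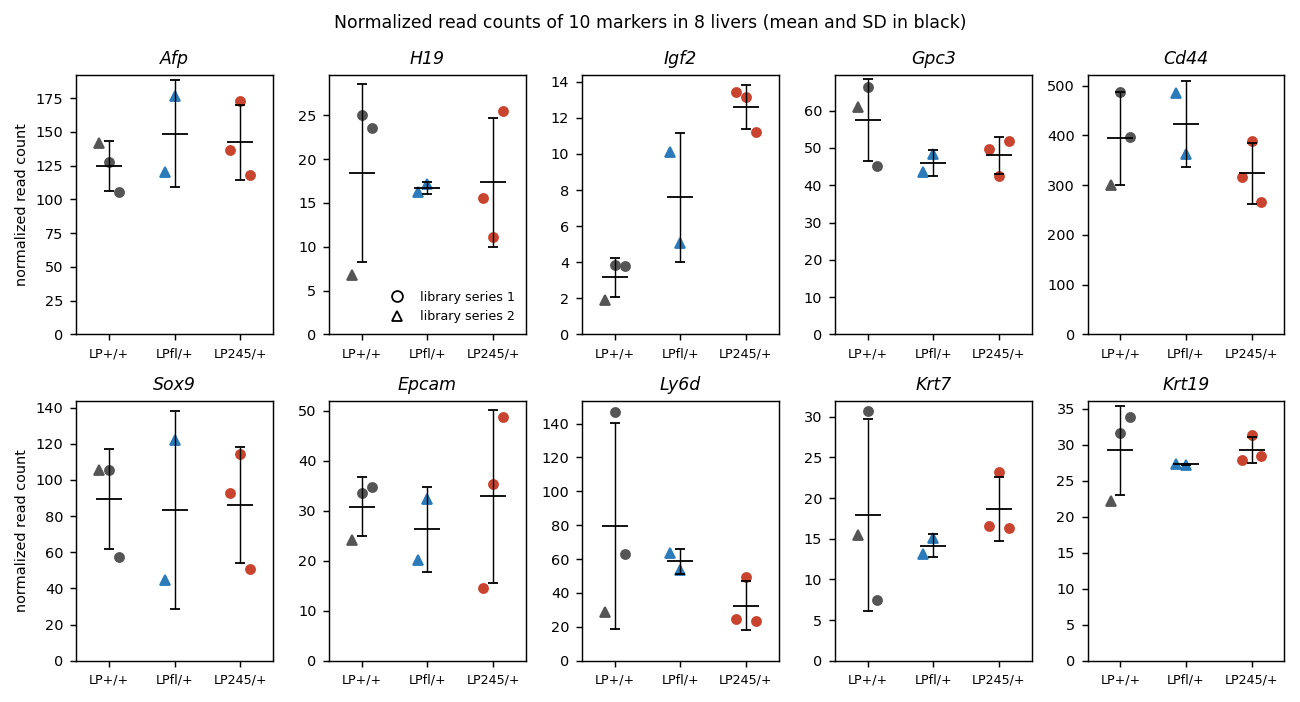
Normalized read counts of the 10 markers (vertical axes, from 0) in the livers of each genotype. Each point is 1 liver, circles are libraries of the first series and triangles of the second, and the black line and bar are mean and SD. The Igf2 groups of 3.18 ± 1.08, 7.59 ± 3.59 and 12.6 ± 1.21 do not overlap, and the other markers overlap between LP+/+ and both other genotypes.

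Cd44, the hyaluronan receptor of leukocytes and of progenitor-like and premalignant hepatocytes, lies at chr2:102811141-102901665 on the minus strand and had the most reads of the markers. It had 310, 506 and 422 reads in the LP+/+ livers, 478 and 358 in the LPfl/+ livers and 306, 384 and 262 in the LP245/+ livers. The lowest liver was LP245/+ and the highest LP+/+, and LP245/+ overlapped with both other genotypes. For Cd44 the log2 fold change was -0.27 in LP245/+ against LP+/+ (95% interval -0.73 to 0.18, edgeR adjusted p = 0.856), 0.11 in LPfl/+ against LP+/+ (-0.39 to 0.61, adjusted p = 0.937) and -0.38 in LP245/+ against LPfl/+ (-0.89 to 0.12, adjusted p = 0.693). Within series, the first 2 of these were -0.45 and 0.50. With the series as a covariate, LP245/+ against LPfl/+ was at -0.94 (edgeR adjusted p = 0.608), a value linked only through the LP+/+ livers. With single livers left out it ran from -0.57 (without LPfl/+ replicate 2) to -0.16 (without LPfl/+ replicate 1), and LP245/+ against LP+/+ ran from -0.43 (without LP+/+ replicate 1) to -0.11 (without LP+/+ replicate 2). Leukocyte markers, all 14 of which were detected, had summed normalized read counts of 4481 to 5365 in LP+/+, 4651 to 6264 in LPfl/+ and 3892 to 4601 in LP245/+. The sums were lower in all LP245/+ livers than in all LPfl/+ livers, by 4601 against 4651 at the closest. In that comparison 13.3% of all genes were lower without overlap. The gene with the most reads in the sum was Clec4f, with 2305 to 3755 a liver. Of 12 leukocyte markers tested there, 9 were lower and 3 higher in LP245/+. The part of leukocytes in the Cd44 values was not tested.

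Sox9, the transcription factor of bile duct cells and of the periportal hepatocytes that can act as progenitors, lies at chr11:112782224-112787760 on the plus strand. It had 109, 110 and 61 reads in the LP+/+ livers, 44 and 121 in the LPfl/+ livers and 90, 113 and 50 in the LP245/+ livers. In normalized read counts, the lowest liver of each genotype was at 57.4, 44.6 and 50.9 and the highest at 106, 122 and 114, so the spread was wide within every genotype. For Sox9 the log2 fold change was -0.04 in LP245/+ against LP+/+ (95% interval -0.96 to 0.88, edgeR adjusted p = 0.991), -0.09 in LPfl/+ against LP+/+ (-1.13 to 0.94, adjusted p = 0.977) and 0.05 in LP245/+ against LPfl/+ (-0.99 to 1.09, adjusted p = 0.993). The last sign turned to -0.03 with library totals. Within series the first 2 were 0.08 and -0.34.

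Epcam, the adhesion molecule of bile duct epithelium and hepatic progenitors, lies at chr17:87635979-87651129 on the plus strand. It had 25, 35 and 37 reads in the LP+/+ livers, 20 and 32 in the LPfl/+ livers and 14, 35 and 48 in the LP245/+ livers, so that both the lowest and the highest liver were LP245/+. For Epcam the log2 fold change was 0.10 in LP245/+ against LP+/+ (95% interval -0.81 to 1.01, edgeR adjusted p = 0.980), -0.22 in LPfl/+ against LP+/+ (-1.26 to 0.82, adjusted p = 0.940) and 0.32 in LP245/+ against LPfl/+ (-0.72 to 1.36, adjusted p = 0.90). Within series the first 2 were -0.06 and 0.12.

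Ly6d, a small lipid-anchored surface protein of epithelial progenitors and early B cells, was the second marker with an unadjusted p under 0.05, in LP245/+ against LP+/+. The gene lies at chr15:74762056-74763620 on the minus strand. It had 30, 153 and 67 reads in the LP+/+ livers, 63 and 53 in the LPfl/+ livers and 24, 49 and 23 in the LP245/+ livers. The LP245/+ livers were below both LPfl/+ livers, but the LP+/+ livers ran from within the LP245/+ range to far above all others. The log2 fold change was -1.27 in LP245/+ against LP+/+ (standard error 0.53, 95% interval -2.46 to -0.09), with an unadjusted p of 0.038 and an edgeR adjusted p of 0.824. It was -0.43 in LPfl/+ against LP+/+ (-1.71 to 0.85, edgeR adjusted p = 0.899) and -0.84 in LP245/+ against LPfl/+ (-2.16 to 0.48, edgeR adjusted p = 0.743). The first value rested in large part on LP+/+ replicate 2, without which it was -0.50. Without LP+/+ replicate 1, the LP+/+ liver of the second series, it was -1.67, and within the first series -1.69. LPfl/+ against LP+/+ gave 1.02 within the second series, where LP+/+ was a single liver, and 0.34 without LP+/+ replicate 2. With the series as a covariate, LP245/+ against LPfl/+ was at -2.69 (edgeR adjusted p = 0.487), again linked only through the LP+/+ livers. Squamous epithelial markers, which could accompany Ly6d, had Krt5, Krt15 and Dsg3 at 0 in every liver. They summed to 52.7 to 59.5 normalized read counts in LP+/+, 65.6 to 70.9 in LPfl/+ and 63.1 to 83.7 in LP245/+. Most of the sum came from Krt10, with 37 to 61 reads a liver. The part of squamous cells in the Ly6d values was not tested.

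Krt7 and Krt19 are the intermediate filament proteins by which bile ducts are stained. Krt7, at chr15:101411043-101430313 on the plus strand, had 16, 32 and 8 reads in the LP+/+ livers, 13 and 15 in the LPfl/+ livers and 16, 23 and 16 in the LP245/+ livers. The lowest and the highest liver were both LP+/+, and the LP245/+ livers were above both LPfl/+ livers by as little as 1 read. Its log2 fold change was 0.08 in LP245/+ against LP+/+ (95% interval -0.96 to 1.11, edgeR adjusted p = 0.988), -0.32 in LPfl/+ against LP+/+ (-1.53 to 0.88, adjusted p = 0.917) and 0.40 in LP245/+ against LPfl/+ (-0.80 to 1.60, adjusted p = 0.887). Within series the first 2 were -0.03 and -0.13.

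Krt19, at chr11:100140810-100148665 on the minus strand, was the steadiest marker. It had 23, 33 and 36 reads in the LP+/+ livers, 27 and 27 in the LPfl/+ livers and 27, 31 and 28 in the LP245/+ livers. The LP245/+ livers lay above the LPfl/+ livers by 27.9 against 27.4 normalized read counts at the closest, and both lay inside the LP+/+ range. For Krt19 the log2 fold change was 0.01 in LP245/+ against LP+/+ (95% interval -0.56 to 0.58, edgeR adjusted p = 0.997), -0.09 in LPfl/+ against LP+/+ (-0.73 to 0.55, adjusted p = 0.962) and 0.10 in LP245/+ against LPfl/+ (-0.54 to 0.75, adjusted p = 0.963). Within series the first 2 were -0.16 and 0.30. The other cholangiocyte markers summed to 2266 to 2554 normalized read counts in LP+/+, 2272 to 3203 in LPfl/+ and 2255 to 2424 in LP245/+, with all 16 detected, so that the duct genes as a group also overlapped between the genotypes.

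Across the set, 0 of the 10 markers passed the cutoff in LP245/+ against LP+/+, where 0.00606% of the 16496 genes tested did, 1 gene in all. In LPfl/+ against LP+/+ and in LP245/+ against LPfl/+ 0 markers passed, as did 0% of all genes in each. An unadjusted p under 0.05 was reached in edgeR by 2 markers in LP245/+ against LP+/+, Igf2 and Ly6d, where 5.93% of all genes had one. Igf2 passed the filter on low counts only through livers where it was high, so its place in this count is no support for a difference. It was reached by 0 markers in LPfl/+ against LP+/+, where 6.89% of all genes had such a p. In LP245/+ against LPfl/+ it was reached by 0 markers, beside 8.51% of all genes. DESeq2 also called 0 markers in each comparison. The median log2 fold change of the markers was -0.02, -0.11 and 0.06 in the 3 comparisons, and that of all genes tested was 0.00 in the first and the third. By sign, 5 markers were higher and 5 lower in LP245/+ than in LP+/+, 3 higher and 7 lower in LPfl/+ than in LP+/+, and 7 higher and 3 lower in LP245/+ than in LPfl/+. The first and second comparison share the LP+/+ livers, and the third shares its livers with both.

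Groups of livers that do not overlap were common among all genes at these sample sizes. In LP245/+ against LP+/+, 1 marker was higher without overlap, Igf2, as were 6.03% of all genes, and 0 were lower, against 5.79%. In LPfl/+ against LP+/+, Igf2 alone was higher without overlap, as were 11.9% of all genes, and 0 markers were lower, against 13.2%. In LP245/+ against LPfl/+, 3 markers were higher without overlap, Igf2, Krt7 and Krt19, against 12.1% of all genes, and 1 was lower, Ly6d, against 13.3%. Igf2, which is in each of these counts, passed the filter on low counts only through livers where it was high.

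**Figure D3:**
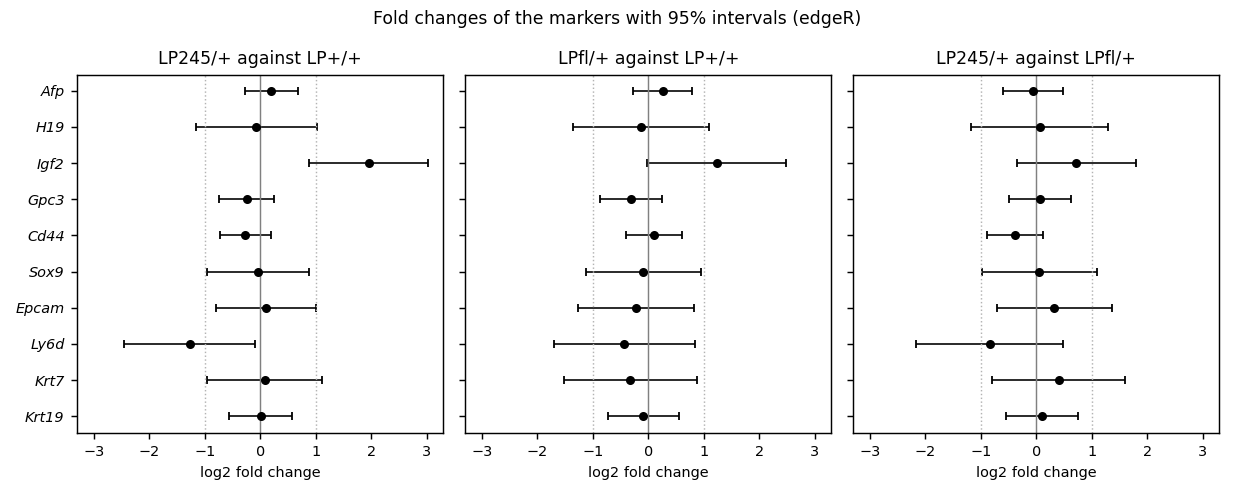
Log2 fold change of each marker (horizontal axis) in the 3 comparisons, as points with 95% intervals from the edgeR fit over all 8 livers. The dotted lines mark log2 fold changes of -1 and 1. All intervals include 0 except those of Igf2 (0.88 to 3.03) and Ly6d (-2.46 to -0.09) in LP245/+ against LP+/+, and neither passes after adjustment over all genes.

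The markers differed in how far livers of the same genotype lay apart. The pooled coefficient of variation within genotypes was highest for Ly6d at 69.8%, followed by Krt7 at 45.7%, H19 at 45.0%, Sox9 at 42.0% and Epcam at 40.0%. Counting alone gives 13.2% for Ly6d, 24.0% for Krt7, 23.7% for H19, 10.7% for Sox9 and 18.0% for Epcam at their mean counts. Igf2 at 24.4% and Krt19 at 14.2% varied no more than counting alone, which gives 35.9% and 18.6%. Afp at 20.1% and Cd44 at 21.5% were above their counting values of 8.51% and 5.14%, and Gpc3 at 15.2% was near its 13.9%.

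**Figure D4:**
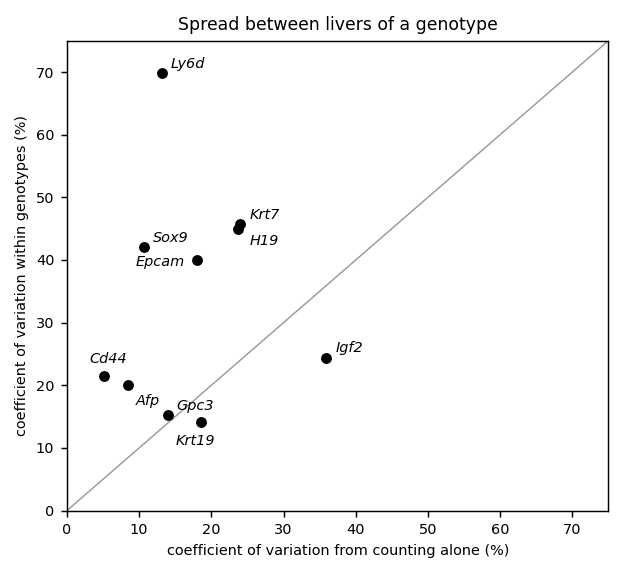
Coefficient of variation of the normalized read count within genotypes (vertical axis, percent) against that expected from counting alone at the mean count (horizontal axis, percent), 1 point per marker. The line marks equal values. Ly6d at 69.8% and Sox9 at 42.0% lie far above the line, and Igf2 and Krt19 lie below it.

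The relations computed among Krt19, Krt7, Epcam and Sox9 did not show these markers moving together over the 8 livers. Cd44 and Ly6d were in no relation computed. Krt19 varied by 14.2% within genotypes, no more than the 18.6% from counting alone. Relations with Krt19 may therefore reflect counting error and cannot show whether these markers move together. Of 5 relations computed on log2(CPM + 1), with exact permutation tests over 40320 arrangements, 2-sided, 0 passed adjustment. Krt19 and Krt7 had a Pearson r of 0.10 (exact permutation p = 0.812, adjusted 0.812) and a Spearman rho of 0.19 (exact permutation p = 0.665, adjusted 0.879) over 8 livers. Without the 2 livers farthest from the Krt19 median, LP+/+ replicates 1 and 3, r was 0.94, and within the first series it was -0.17 over 5 livers, so the value rests on which livers are counted. Krt19 and Epcam had an r of 0.39 (exact permutation p = 0.335, adjusted 0.812) and a rho of 0.62 (exact permutation p = 0.115, adjusted 0.331), with 0.35 without the farthest livers and 0.26 within the first series. Krt19 and Sox9 had an r of -0.16 (exact permutation p = 0.720, adjusted 0.812) and a rho of -0.07 (exact permutation p = 0.882, adjusted 0.882), with 0.45 without the farthest livers and 0.05 within the first series. Krt7 and Epcam had an r of 0.13 (exact permutation p = 0.776, adjusted 0.812) and a rho of 0.17 (exact permutation p = 0.703, adjusted 0.879), with 0.33 without the farthest livers and 0.01 within the first series. H19 and Afp, which share the repressor Zhx2, had an r of -0.57 (exact permutation p = 0.142, adjusted 0.710) and a rho of -0.60 (exact permutation p = 0.132, adjusted 0.331), with -0.68 without the farthest livers and -0.89 within the first series. The relation of H19 with Igf2 was not computed, because Igf2 had a mean count of 7.75.

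For each marker with a mean count of at least 10, the 3 genes with the most similar log2 CPM over the 8 livers were looked up among the 16496 genes, as a description; with so many genes, high correlations over 8 points arise readily. Those of Sox9 were Fosl2 (Pearson r 0.99), Jun (0.97) and Trub2 (0.96), of which Fosl2 and Jun are subunits of the stress-responsive AP-1 factor. Jun had 365, 339 and 234 normalized read counts in the LP+/+ livers, 200 and 372 in the LPfl/+ livers and 346, 374 and 254 in the LP245/+ livers. The same 3 livers were low for Sox9 and for Jun, LP+/+ replicate 3, LPfl/+ replicate 1 and LP245/+ replicate 3, which is 1 liver of each genotype. Those of Cd44 were Cxcl10 (0.96), a chemokine induced by interferon, Prkab1 (0.95) and Dhx58 (0.95), a sensor of viral RNA that interferon also induces. Those of Krt19 were the hepatocyte genes Cyp2d26 (0.99), Acss3 (0.99) and Ugt1a1 (0.98). Those of H19 were Acot13 (0.98), Hmgn5 (0.98) and Cyb5a (0.96), those of Afp were Gm43963 (0.96), Gm16574 (0.94) and Jmjd4 (0.94), and those of Gpc3 were Epop (0.93), Car2 (0.93) and D430040D24Rik (0.92). Epcam was nearest to Gm9892 (0.96), Dhx15 (0.95) and Tctex1d2 (0.95), Krt7 to Wdr92 (0.97), Stk19 (0.95) and Pdzd11 (0.94), and Ly6d to Ints14 (0.97), Tmem184a (0.96) and Abhd2 (0.95).

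**Figure D5:**
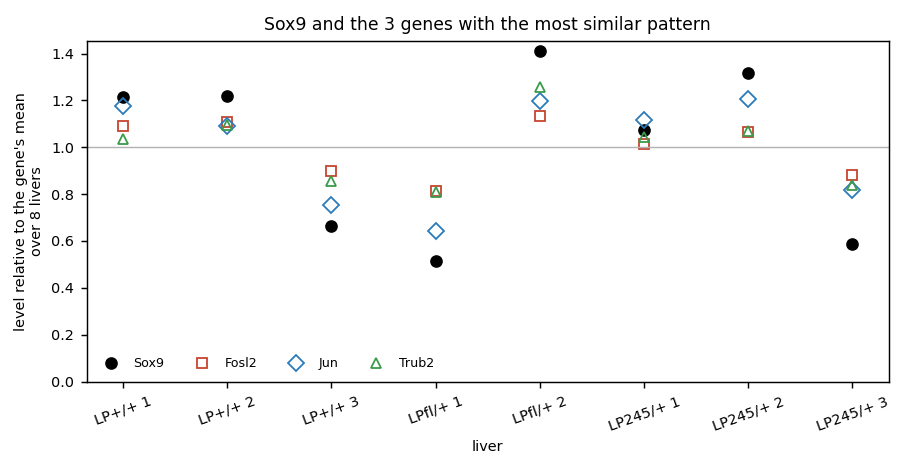
Normalized read count of Sox9 (filled circles) and of the 3 genes with the most similar pattern, each divided by its own mean over the 8 livers (vertical axis, from 0), by liver. All 4 genes lie below their mean in LP+/+ 3, LPfl/+ 1 and LP245/+ 3, and the plot shows no separation by genotype.

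The genes of 14 lists around these markers were measured next, 123 list entries tested in all. An unadjusted p under 0.05 was reached by 2.44% of them in LP245/+ against LP+/+, 8.13% in LPfl/+ against LP+/+ and 13.8% in LP245/+ against LPfl/+, beside 5.93%, 6.89% and 8.51% of all genes tested. The first list held the regulators of the oncofetal genes. Of the 13 listed, all of which were tested, 0 passed the cutoff in any comparison. In LP245/+ against LP+/+, 11 were higher and 2 lower by sign, with a median log2 fold change of 0.04 beside 0.00 for all genes, and 0 had an unadjusted p under 0.05. Zhx2, the postnatal repressor of Afp, H19 and Gpc3, had 645, 308 and 379 reads in LP+/+ and 591, 601 and 494 in LP245/+, a log2 fold change of 0.44 (edgeR adjusted p = 0.831). Zbtb20, another Afp repressor, had a log2 fold change of 0.31 there (edgeR adjusted p = 0.837). In LPfl/+ against LP+/+, 2 had an unadjusted p under 0.05, both lower, Zhx3 at -0.35 (edgeR adjusted p = 0.697) and Ctcf at -0.22 (edgeR adjusted p = 0.718). Ctcf is the insulator protein of the H19 and Igf2 imprinting control region. In LP245/+ against LPfl/+ 3 had one, all higher, among them Zhx3 at 0.48 (edgeR adjusted p = 0.362) and Hnf4a, a master regulator of hepatocyte genes, at 0.39 (edgeR adjusted p = 0.509).

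Other oncofetal and imprinted genes, 9 of 14 tested, included 1 with an unadjusted p under 0.05 in LP245/+ against LP+/+ and 0 past the cutoff in any comparison. It was Peg3, an imprinted zinc finger gene, with 177, 133 and 153 reads in the LP+/+ livers, 143 and 221 in the LPfl/+ livers and 273, 229 and 171 in the LP245/+ livers. For Peg3 the log2 fold change was 0.65 in LP245/+ against LP+/+ (standard error 0.23, edgeR adjusted p = 0.795) and 0.32 in LP245/+ against LPfl/+ (edgeR adjusted p = 0.778). Its normalized read counts were higher in LP245/+ than in LP+/+ without overlap, as were those of 6.03% of all genes. Igf2bp2, which binds Igf2 mRNA, was at -0.32 in LP245/+ against LP+/+ (edgeR adjusted p = 0.883), 0.42 in LPfl/+ against LP+/+ (edgeR adjusted p = 0.810) and -0.75 in LP245/+ against LPfl/+ (edgeR adjusted p = 0.551), the last with an unadjusted p of 0.038. Igf2r, the receptor that clears Igf2, was at -0.26 in LPfl/+ against LP+/+ (edgeR adjusted p = 0.792). Lin28b, the fetal repressor of let-7, had 0 reads in every liver, and the list's median was -0.02, 0.07 and 0.03 in the 3 comparisons.

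The further bile duct markers, 11 of 16 tested, had 0 genes with an unadjusted p under 0.05 in any comparison and medians of -0.05, 0.15 and -0.14. The lowest p values in the list belonged to Prom1, at 0.40 in LP245/+ against LP+/+ and 0.40 in LPfl/+ against LP+/+, to Tspan8, at -0.52 in LP245/+ against LP+/+ and -0.78 in LP245/+ against LPfl/+, to Pkhd1, at 0.18 in LPfl/+ against LP+/+, and to Spp1, at -0.31 in LP245/+ against LPfl/+, all log2 fold changes. Of the Notch and YAP genes, which drive the biliary programme, 16 of 18 were tested and 0 passed the cutoff, with medians of -0.05, -0.15 and 0.13. An unadjusted p under 0.05 was reached by 0, 1 and 2 of them in the 3 comparisons. Hes1, the Notch target, had 90, 315 and 187 reads in the LP+/+ livers, 107 and 174 in the LPfl/+ livers and 397, 298 and 214 in the LP245/+ livers, a log2 fold change of 0.73 in LP245/+ against LP+/+ (edgeR adjusted p = 0.831) and 1.13 in LP245/+ against LPfl/+ (edgeR adjusted p = 0.550). The YAP target Ccn2 was at -0.47 in LP245/+ against LP+/+ (edgeR adjusted p = 0.831) and -0.10 in LPfl/+ against LP+/+. Ccn1, another YAP target, was at 0.13 and at 0.36 (edgeR adjusted p = 0.757) in the same comparisons. In LP245/+ against LPfl/+ both were lower, Ccn2 at -0.37 and Ccn1 at -0.23. Amotl2 was at -0.27 in LPfl/+ against LP+/+ (edgeR adjusted p = 0.721) and 0.32 in LP245/+ against LPfl/+ (edgeR adjusted p = 0.50).

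Genes associated with liver tumors, 13 of 15 tested, had 0 past the cutoff. By sign they were mostly lower in both genotypes that carried Cre and a Trp53 lesion. Against LP+/+, 11 were lower and 2 higher in LP245/+, and 10 lower and 3 higher in LPfl/+, with medians of -0.18 and -0.25. The medians of all genes tested were 0.0029 and -0.0010. Both comparisons share the LP+/+ livers, so their signs are not independent. Mki67, which encodes the proliferation antigen Ki67, had 238, 279 and 277 reads in the LP+/+ livers, 137 and 163 in the LPfl/+ livers and 166, 180 and 182 in the LP245/+ livers. LP+/+ did not overlap with either. Without overlap, 5.79% of all genes were lower in LP245/+ than in LP+/+, and 13.2% were lower in LPfl/+. For Mki67 the log2 fold change against LP+/+ was -0.48 in LP245/+ (edgeR adjusted p = 0.795) and -0.73 in LPfl/+ (edgeR adjusted p = 0.697). An unadjusted p under 0.05 was reached by 2 genes of this list in each comparison with LP+/+, all lower, and in LP245/+ against LPfl/+ by 1 that was higher and 2 that were lower. Nqo1 was at -1.14 in LPfl/+ against LP+/+ (edgeR adjusted p = 0.697), and Lcn2 at -0.93 in LP245/+ against LP+/+ (edgeR adjusted p = 0.831) and -1.26 against LPfl/+ (edgeR adjusted p = 0.50). Myc was at -1.92 in LP245/+ against LPfl/+ (edgeR adjusted p = 0.465), where LPfl/+ had 32 and 185 reads and the other genotypes 22 to 71.

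Hyaluronan and Cd44 ligand genes, 9 of 11 tested, had 0 past the cutoff, medians of 0.13, 0.05 and 0.17, and 2 genes with an unadjusted p under 0.05, both in LP245/+ against LPfl/+, Hyal2 and Cemip2. The hyaluronidases Hyal1 and Hyal2 were at 0.16 and -0.17 in LP245/+ against LP+/+ (edgeR adjusted p = 0.831 and 0.837), and Hyal2 was at -0.28 against LPfl/+ (edgeR adjusted p = 0.532). Cemip2 was at -0.26 in LPfl/+ against LP+/+ (edgeR adjusted p = 0.739) and 0.43 in LP245/+ against LPfl/+ (edgeR adjusted p = 0.402), and Hmmr at -1.05 in LPfl/+ against LP+/+ (edgeR adjusted p = 0.738). Of the other simple epithelial keratins 3 of 6 were tested, with medians of 0.05, 0.02 and 0.03. Krt8 was at 0.05 and Krt18 at -0.02 in LP245/+ against LP+/+, Krt18 at 0.13 and Krt23 at -0.10 in LPfl/+ against LP+/+, and Krt18 at -0.15 and Krt23 at 0.18 in LP245/+ against LPfl/+, with edgeR adjusted p from 0.823 to 0.988.

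The marker lists of other liver cells had 0 genes past the cutoff in any comparison. In LP245/+ against LP+/+, 0 hepatocyte, leukocyte, stellate, endothelial and mesothelial markers had an unadjusted p under 0.05, and their medians were -0.02, -0.07, 0.03, -0.01 and 0.01. In LPfl/+ against LP+/+, the medians were -0.24 for 10 hepatocyte, 0.19 for 12 leukocyte, -0.20 for 10 stellate and fibroblast, -0.22 for 8 endothelial and -0.04 for 6 mesothelial markers. In LP245/+ against LPfl/+ they were 0.18, -0.34, 0.09, 0.24 and 0.11. An unadjusted p under 0.05 was reached in LPfl/+ against LP+/+ by 2 hepatocyte and 2 endothelial markers, all lower, and 1 leukocyte marker, higher. In LP245/+ against LPfl/+ it was reached by 1 hepatocyte, 1 stellate and 2 endothelial markers, all higher, and 2 leukocyte markers, lower. Mesothelial cells and fibroblasts can carry Igf2. Mesothelial markers summed to 194 to 269 normalized read counts in LP+/+, 178 to 235 in LPfl/+ and 195 to 281 in LP245/+. Stellate and fibroblast markers summed to 15922 to 17145, 13118 to 16424 and 16070 to 16787, most of it from Reln and Dcn. Both sums overlapped between the genotypes. The part of these cells in the Igf2 values was not tested. Pancreatic exocrine markers summed to at most 17.6 normalized read counts in a liver, with Prss2 and Ctrb1 at 0 in all, and 1 of 7 was tested, at a log2 fold change of 0.03, -0.11 and 0.14. Of the 8 squamous markers 2 were tested, with medians of 0.31, 0.26 and 0.05.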

How the data were processed

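Total RNA of 8 livers was made into stranded libraries and sequenced as paired-end reads. The authors aligned the reads to GRCm38 with STAR and deposited read counts per gene on a GENCODE annotation, without normalization (the release and the strand setting are not given in the sources used here). Each of the 8 columns matched the label of 1 sample. Symbols, positions and exon lengths came from GENCODE M21, which left 259 of the 49585 identifiers without a symbol, and promoters from RefSeq (GRCm38.p6).

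Genotypes were compared in edgeR 4.0.16 under R 4.3.3 with the quasi-likelihood F test, TMM factors and filterByExpr by genotype at a minimum count of 10, all 8 livers in 1 fit, with Benjamini-Hochberg adjustment over 16496 genes. The cutoff of the study was used, a log2 fold change of 1 or more in size and an adjusted p of 0.05 or less. Standard errors are the absolute log2 fold change divided by the root of F. Normalized read counts were obtained with the size factors of DESeq2 1.42.0, and CPM use TMM library sizes. The floor of detection was set at 3 counts. Totals of 26304526 to 31370714 counts per liver set the precision. Intervals for single ratios are exact and cover counting error only. Labels and methods give separate animals, and p-values measure the spread between these livers. Correlations were tested with scipy 1.17.1 by exact permutation, and figures drawn with matplotlib 3.10.9 under Python 3.11.15. The fit was tested on simulated data.

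The markers and the 14 gene lists (regulators, oncofetal and imprinted, bile duct, Notch and YAP, tumor-associated, hyaluronan, keratins, and hepatocyte, leukocyte, stellate, endothelial, mesothelial, pancreatic and squamous markers) were chosen with earlier results of these data known. Named genes were all 10 markers, any list gene past the cutoff, for the first 7 lists the 2 genes with the smallest p in each comparison, and the 3 genes nearest to each marker with a mean count of at least 10. Libraries were compared for duplicates, and none was found. Alternatives were DESeq2 (the tool of the study), its size factors in edgeR, library totals, no filter, a filter of 10 counts or more in all livers, fits of only the 2 genotypes in question, the adjusted p alone, a replicate block, a covariate for library series, leaving out each liver, and log2(CPM + 0.1) for correlations. Protein sequences were not used here.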

Additional observations from a re-analysis of the deposited data

How the results depend on the processing

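The number of markers past the cutoff was 0 in every comparison under every alternative run, and the smallest adjusted p of any marker in any of them was 0.386. Of 470 alternative values of the markers' log2 fold changes, 415 kept their sign and their side of the cutoff and 55 turned sign, in 20 of the 30 marker comparisons, whose values as reported were at most 0.72 in size. Igf2 in LP245/+ against LP+/+ kept its sign under all that were run, at 1.71 to 2.09 without single livers. H19, Igf2, Krt7, Epcam and Krt19 had at most 48 reads in a liver. Igf2 and Krt19 varied within genotypes no more than counting alone. H19, Krt7 and Epcam varied by 45.0%, 45.7% and 40.0%, against 23.7%, 24.0% and 18.0% from counting alone. Depth is therefore not the only limit for these genes. With at least 10 counts in every liver, Igf2, H19 and Krt7 were not tested.

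With DESeq2 the genes past the cutoff numbered 10 in LP245/+ against LP+/+, 9 in LPfl/+ against LP+/+ and 54 in LP245/+ against LPfl/+, and without the filter 20, 14 and 122. With the library series as a covariate they numbered 3, 3 and 10, with the replicate block 0 in LP245/+ against LP+/+, and with only the 2 groups 51 in LP245/+ against LPfl/+. Leaving out each liver gave 0 to 5, 0 to 59 and 0 to 47, with the 59 and the 47 without LP+/+ replicate 1. The cause of these differences was not tested. The replicate numbers do not pair the livers, as same-numbered livers' deviations from their group means correlated at -0.08 to 0.03.

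The following log2 fold changes turned sign. With DESeq2, Krt19 in LP245/+ against LP+/+ was -0.0015. With library totals, LP245/+ against LPfl/+ gave -0.012 for Gpc3, -0.024 for H19 and -0.028 for Sox9. With the replicate block, LP245/+ against LPfl/+ gave 0.067 for Afp and -0.25 for H19, and LPfl/+ against LP+/+ gave 0.20 for H19. With the series covariate, LP245/+ against LP+/+ gave -0.045 for Epcam, -0.15 for Krt19, -0.017 for Krt7 and 0.092 for Sox9. LPfl/+ against LP+/+ then gave 0.13 for Epcam, 1.30 for H19, 0.30 for Krt19 and 1.02 for Ly6d. LP245/+ against LPfl/+, which then rests on the LP+/+ livers as the only link between the series, gave 0.23 for Afp, -0.17 for Epcam, -1.76 for H19, -0.21 for Igf2 and -0.46 for Krt19. With single livers left out, the ranges that crossed 0 in LP245/+ against LP+/+ were -0.30 to 0.45 for Epcam, -0.47 to 0.19 for H19, -0.15 to 0.12 for Krt19, -0.30 to 0.70 for Krt7 and -0.30 to 0.21 for Sox9. In LPfl/+ against LP+/+ they were -0.058 to 0.50 for Afp, -0.13 to 0.29 for Cd44, -0.61 to 0.062 for Epcam, -0.53 to 0.13 for H19, -0.25 to 0.017 for Krt19, -0.70 to 0.30 for Krt7, -0.83 to 0.34 for Ly6d and -1.01 to 0.45 for Sox9. In LP245/+ against LPfl/+ they were -0.31 to 0.25 for Afp, -0.069 to 0.70 for Epcam, -0.011 to 0.15 for Gpc3, -0.32 to 0.29 for H19 and -0.50 to 0.95 for Sox9.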
